A study of Mus musculus with 10 samples.

Results

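Of the 10 genes of the cell cycle, p53 and Bcl2 group named for this comparison, 9 had a probe on the NanoString panel and were taken by symbol from the 770 endogenous and reference probes. They were *Birc5*, *Cdk1*, *Ccnd3*, *Cdkn1a*, *Trp53*, *Bcl2*, *Bcl2l1*, *Bax* and *Bid*. *Pbk* was not analysed here. They were taken by name, with earlier results of these data known. YUMMER1.7 cells, a cultured mouse melanoma line with a mutant *Braf* allele and without *Cdkn2a*, were injected under the skin of WT mice or of Siah2 KO (*Siah2*-/-) mice, and 5 tumors of each genotype were collected on day 11 according to the labels. The knockout was in all cells of the host, while the injected cells were the same in both groups, and the age of the animals is not given in the labels. The text describing the series gives a different line and knockout, and the labels of the single tumors were followed. The panel has no Siah2 probe, so that the values cannot check the genotype.

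*Cdk1* encodes the kinase that drives cells into mitosis, and *Birc5* encodes survivin, a protein of the chromosomal passenger complex that is made mostly in dividing cells. *Ccnd3* encodes cyclin D3, which activates CDK4 and CDK6 in G1 and is the D-type cyclin best known from lymphocytes. *Trp53* encodes p53, and *Cdkn1a* encodes p21, the CDK inhibitor that p53 induces after DNA damage. *Cdkn2a*, which the injected cells lack, encodes an inhibitor of CDK4 and CDK6 and an activator of p53. In the Bcl2 family, Bcl-2 and Bcl-xL, the product of *Bcl2l1*, protect mitochondria, and Bax permeabilizes their outer membrane. Bid carries the signal of death receptors to mitochondria after it is cleaved.

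The promoters of *Birc5* and *Cdk1* are shown because both genes are read as signs of division, that of *Bid* because it was the gene of the group that differed between genotypes, and the upstream one of the pair of *Cdkn1a* promoters because it holds matches to the p53 motif. Each runs from 250 bases before to 50 bases after the start of a transcript, 5′ to 3′ on the strand of the gene, and was taken from RefSeq (GRCm38.p6). Capitals mark the CCAAT box (CCAAT, here read as ATTGG on the other strand) and the cell cycle homology region (TTTGAA) in *Cdk1*, the GC box (GGGCGG or its complement) in *Birc5* and *Bid*, and the p53 decamer in *Cdkn1a*.
Birc5, chr11:117848987-117849286, plus strand: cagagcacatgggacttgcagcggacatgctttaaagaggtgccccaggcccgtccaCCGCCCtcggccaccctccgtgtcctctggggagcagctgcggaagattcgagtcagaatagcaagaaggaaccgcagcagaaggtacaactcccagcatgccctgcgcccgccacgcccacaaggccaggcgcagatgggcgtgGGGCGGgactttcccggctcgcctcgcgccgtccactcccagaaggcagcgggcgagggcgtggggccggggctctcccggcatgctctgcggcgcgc
Cdk1, chr10:69352863-69353162, minus strand: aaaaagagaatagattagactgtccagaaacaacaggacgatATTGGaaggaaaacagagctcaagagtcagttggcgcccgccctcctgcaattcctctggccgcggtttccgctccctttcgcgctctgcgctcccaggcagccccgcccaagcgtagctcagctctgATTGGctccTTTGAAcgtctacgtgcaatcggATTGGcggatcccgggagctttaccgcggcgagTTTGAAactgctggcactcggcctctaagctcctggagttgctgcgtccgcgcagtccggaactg
Bid, chr6:120916775-120917074, minus strand: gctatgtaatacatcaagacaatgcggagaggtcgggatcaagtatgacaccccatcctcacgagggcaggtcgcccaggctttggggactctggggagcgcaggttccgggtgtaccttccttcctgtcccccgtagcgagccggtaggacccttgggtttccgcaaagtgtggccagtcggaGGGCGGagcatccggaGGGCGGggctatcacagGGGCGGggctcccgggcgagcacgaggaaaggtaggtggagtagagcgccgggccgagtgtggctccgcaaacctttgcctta
Cdkn1a, chr17:29090729-29091028, plus strand: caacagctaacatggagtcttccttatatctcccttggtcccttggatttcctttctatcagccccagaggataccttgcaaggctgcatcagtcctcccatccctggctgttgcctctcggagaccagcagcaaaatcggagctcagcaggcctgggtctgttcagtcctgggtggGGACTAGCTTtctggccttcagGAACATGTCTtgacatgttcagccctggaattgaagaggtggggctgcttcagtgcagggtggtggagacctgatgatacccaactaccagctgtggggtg

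Both strands were searched, and no marked match overlapped another. The *Cdk1* promoter held 3 CCAAT boxes, starting at −208, −80 and −48 from the start site, and 2 cell cycle homology regions, starting at −71 and −15. Of 32851 promoters of this length, 37.4% held a CCAAT box and 17.9% the letters TTTGAA. The *Birc5* promoter held neither of them. GC boxes, present in 35.7% of all promoters, occurred 2 times in *Birc5* and 3 times in *Bid*, there between −66 and −28. The *Cdk1* promoter also held 2 GC boxes, starting at −171 and −104, which are not marked. An E2F-like motif (TTTNNCGC), found in 5.17% of promoters, occurred 2 times in *Cdk1* and was not in the *Birc5* and *Bid* windows. The p53 decamer was found in 8.36% of promoters, 2 times in the upstream *Cdkn1a* promoter, and 1 time in each of the *Birc5*, *Trp53* and *Bax* promoters. These matches describe the sequence and are not measured binding sites.

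The tumors were compared, Siah2 KO minus WT, by limma on log2 of the normalized count plus 1, with Benjamini-Hochberg adjustment over all 770 probes. Of the 9 genes, 1 was higher, 0 were lower and 8 did not pass an adjusted p of 0.05. Over all probes 41.0% passed, with 31.3% higher and 9.74% lower. The 9 genes had a median log2 fold change of 0.17, beside 0.24 over all probes. The groups did not overlap for 1 of the 9 genes and for 31.6% of all probes. At an unadjusted p under 0.05, 2 of the 9 genes passed, *Bid* and *Bax*, both higher, beside 49.9% of all probes. By the methods' t-test 4 of the 9 genes were at an unadjusted p under 0.05, beside 49.2% of all probes. With the endogenous median as the scale, the calls over all probes were 163 higher and 152 lower, and 153 higher and 181 lower by quantile normalization, in place of 241 and 75, and 4 of the 9 genes passed in each, 1 higher and 3 lower. The study does not say whether the tumors of a group came from mice of separate litters or days, and p-values measure the spread between these tumors. For a single gene the exact permutation test (two-sided, 5 against 5) cannot go below 0.0079.

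**Figure D1:**
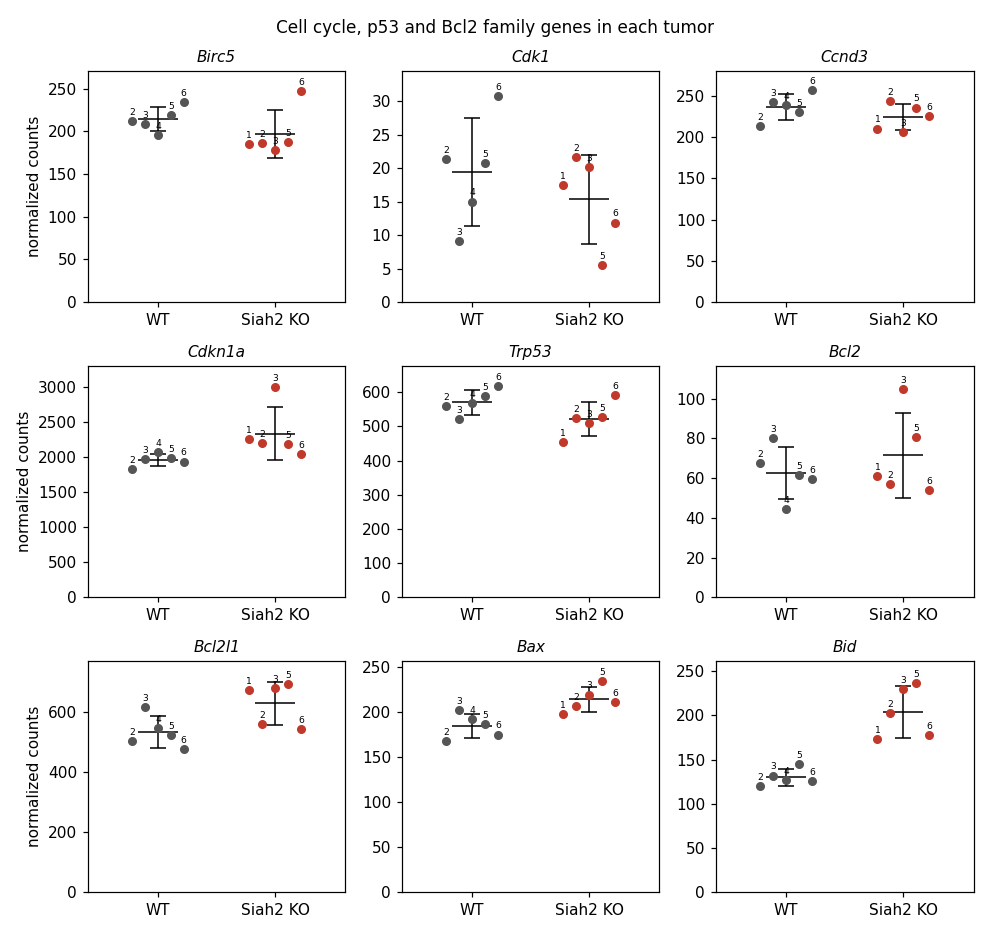
Normalized counts (vertical axes, each from 0) of the 9 genes in 5 WT tumors (grey) and 5 Siah2 KO tumors (red), with the replicate number beside each point and the mean ± SD as black bars. The *Bid* groups do not overlap, at 145 at most in WT and 173 at least in Siah2 KO tumors, while the groups of the other 8 genes overlap.

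The values were scaled by the authors to reference genes, and on this scale the panel as a whole was higher in Siah2 KO tumors. Scaling each tumor to the median of its endogenous probes moved the median log2 fold change of all probes by −0.25, quantile normalization by −0.28 and scaling to the positive control probes by −0.16. A log2 fold change between about 0 and 0.24 on the deposited scale is therefore a change below that of the median probe. Normalized counts summed to 512955 to 585366 in WT and to 575773 to 741789 in Siah2 KO tumors, of which replicates 5 and 3 were highest and replicate 6 lowest. Before the authors' factor of each tumor the sums were 443458 to 578703 in WT and 382860 to 581636 in Siah2 KO tumors, so that the groups overlapped. The factor was at least 1.03 in every Siah2 KO tumor. In WT it was 1.32 in replicate 5 and at most 0.974 in the other tumors. How much of the higher panel in Siah2 KO tumors came from these factors was not tested. The genes are given below on the deposited scale first, and then relative to the endogenous median where a direction or a call changed.

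*Bid* was the gene of the group that rose. It had 120.1, 132, 127, 145 and 125 normalized counts in WT replicates 2 to 6, and 173, 203, 230, 236.0 and 178 in Siah2 KO replicates 1, 2, 3, 5 and 6. All 5 Siah2 KO tumors lay above all WT tumors, and replicates 3 and 5 were the highest. The means were 129.8 ± 9.43 in WT and 203.8 ± 28.9 in Siah2 KO tumors (SD, n = 5 each). *Bid* had a log2 fold change of 0.64 (95% interval 0.39 to 0.89, adjusted p = 0.0016 from limma), a ratio of 1.56 on the value plus 1. The two-sided exact permutation test gave p = 0.0079. Among all probes 74.2% had a lower log2 fold change than *Bid*. Relative to the endogenous median it was 0.37 (adjusted p = 0.0031), and by quantile normalization 0.39 (adjusted p = 0.0011), with all 5 Siah2 KO tumors above all WT tumors in both. Scaled to the positive controls it was 0.48 with an interval from −0.17 to 1.13 (adjusted p = 0.40), and 2 of 5 Siah2 KO tumors lay above the highest WT tumor.

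*Bax*, the effector of the family on the panel, had 168, 202, 192, 187 and 175 normalized counts in WT replicates 2 to 6 and 198, 207, 219.7, 235 and 212 in Siah2 KO replicates 1, 2, 3, 5 and 6. In 4 of 5 Siah2 KO tumors it was above the highest WT tumor, WT replicate 3, and replicate 1 was below it. Its log2 fold change was 0.21 (95% interval 0.02 to 0.40, adjusted p = 0.066 from limma), with p = 0.016 in the exact permutation test. This lies near the median probe, and on the scale of the endogenous median *Bax* was at −0.05 (adjusted p = 0.67).

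*Bcl2l1* had 504, 616, 547, 524 and 476 normalized counts in WT replicates 2 to 6 and 671, 559, 678, 693 and 544 in Siah2 KO replicates 1, 2, 3, 5 and 6. Siah2 KO replicates 1, 3 and 5 were above the highest WT tumor, and replicates 2 and 6 lay within the WT range. The log2 fold change was 0.23 (95% interval −0.01 to 0.48, adjusted p = 0.11 from limma), and relative to the endogenous median it was −0.03 (adjusted p = 0.84). *Bcl2*, the other protective gene, had 67.4, 80.25, 44.4, 61.7 and 59.7 normalized counts in the WT tumors and 60.8, 56.9, 105, 80.85 and 54.1 in the Siah2 KO tumors, in the same order of replicates. Only Siah2 KO replicates 3 and 5 exceeded the WT range, replicate 5 narrowly, at 80.85 against 80.25. These tumors also had the highest summed counts. Relative to the endogenous median and by quantile normalization, no Siah2 KO tumor exceeded the WT range of *Bcl2*. The log2 fold change of *Bcl2* was 0.17 (95% interval −0.30 to 0.64, adjusted p = 0.55), an interval that does not settle its direction. It was −0.10 relative to the endogenous median.

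Neither gene that marks dividing cells passed on the deposited scale. *Birc5* had 212, 209, 196, 219 and 234 normalized counts in WT replicates 2 to 6 and 185, 187, 178, 187 and 247 in Siah2 KO replicates 1, 2, 3, 5 and 6. Siah2 KO replicates 1, 2, 3 and 5 were below every WT tumor, and replicate 6 was above every WT tumor. The log2 fold change was −0.13 (95% interval −0.36 to 0.11, adjusted p = 0.36 from limma), and −0.21 without Siah2 KO replicate 6 (adjusted p = 0.059). With each tumor left out in turn it was between −0.21 and −0.095 (adjusted p between 0.059 and 0.54 from limma). Scaled to the endogenous median it was −0.39 (adjusted p = 0.048), and −0.42 by quantile normalization (adjusted p = 0.033), while 1 of 5 Siah2 KO tumors stayed within the WT range on both scales. Scaled to the positive controls it was −0.29 (adjusted p = 0.68), with 1 of 5 Siah2 KO tumors above every WT tumor and 2 below.

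*Cdk1*, whose mean alone was under 20, had 21.4, 9.13, 15.03, 20.8 and 30.75 normalized counts in WT replicates 2 to 6 and 17.5, 21.7, 20.2, 5.49 and 11.9 in Siah2 KO replicates 1, 2, 3, 5 and 6. The groups overlapped over most of their range. Before the authors' factor, *Cdk1* was between 3.72 and 31.9 counts after background subtraction, and the highest negative control probe of each tumor was between 2.37 and 10.7. In Siah2 KO replicate 5 *Cdk1*, at 3.72, was below that tumor's highest negative control, at 10.7. Its log2 fold change was −0.35 with a 95% interval from −1.22 to 0.52 (adjusted p = 0.50 from limma), so that neither a fall nor a rise could be detected at this signal. It was −0.05 without Siah2 KO replicate 5.

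*Ccnd3* had 214, 243, 239, 231 and 257 normalized counts in WT replicates 2 to 6 and 211, 244, 206, 236.0 and 226 in Siah2 KO replicates 1, 2, 3, 5 and 6. Its groups overlapped, with Siah2 KO replicates 1 and 3 below the WT range. It had the smallest log2 fold change of the 9 genes in size, −0.08 (95% interval −0.27 to 0.11, adjusted p = 0.50 from limma). Relative to the endogenous median *Ccnd3* was at −0.34 (adjusted p = 0.025), and by quantile normalization at −0.39 (adjusted p = 0.0067). All 5 Siah2 KO tumors were below every WT tumor on both scales. Relative to the endogenous median the groups nearly touched, at 7.8828 in the highest Siah2 KO and 7.8838 in the lowest WT tumor (log2). Scaled to the positive controls it was at −0.24 (adjusted p = 0.75), and the groups overlapped.

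*Trp53* had 559.7, 521, 567, 589.7 and 619 normalized counts in WT replicates 2 to 6 and 455, 524, 510.2, 527 and 593 in Siah2 KO replicates 1, 2, 3, 5 and 6. Siah2 KO replicates 1 and 3 were below the WT range, and none was above it. The log2 fold change was −0.13 (95% interval −0.34 to 0.07, adjusted p = 0.27 from limma). As with *Ccnd3*, the call depended on the scale. Relative to the endogenous median *Trp53* was at −0.40 (adjusted p = 0.019) and by quantile normalization at −0.50 (adjusted p = 0.0063), with 4 of 5 Siah2 KO tumors below every WT tumor, while scaled to the positive controls it was at −0.29 (adjusted p = 0.67).

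*Cdkn1a*, the gene of p21, had 1826, 1978, 2067, 1982 and 1936 normalized counts in WT replicates 2 to 6 and 2262, 2197, 2998, 2183.5 and 2043 in Siah2 KO replicates 1, 2, 3, 5 and 6. In 4 of 5 Siah2 KO tumors it was above the highest WT tumor, and Siah2 KO replicate 3 stood far above the rest. The log2 fold change was 0.24 (95% interval −0.003 to 0.49, adjusted p = 0.10 from limma), the same as the median of all probes, with p = 0.016 in the exact permutation test. Without Siah2 KO replicate 3 it was 0.15. Its direction turned under another scale, to −0.02 relative to the endogenous median and to −0.19 by quantile normalization, and neither passed.

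**Figure D2:**
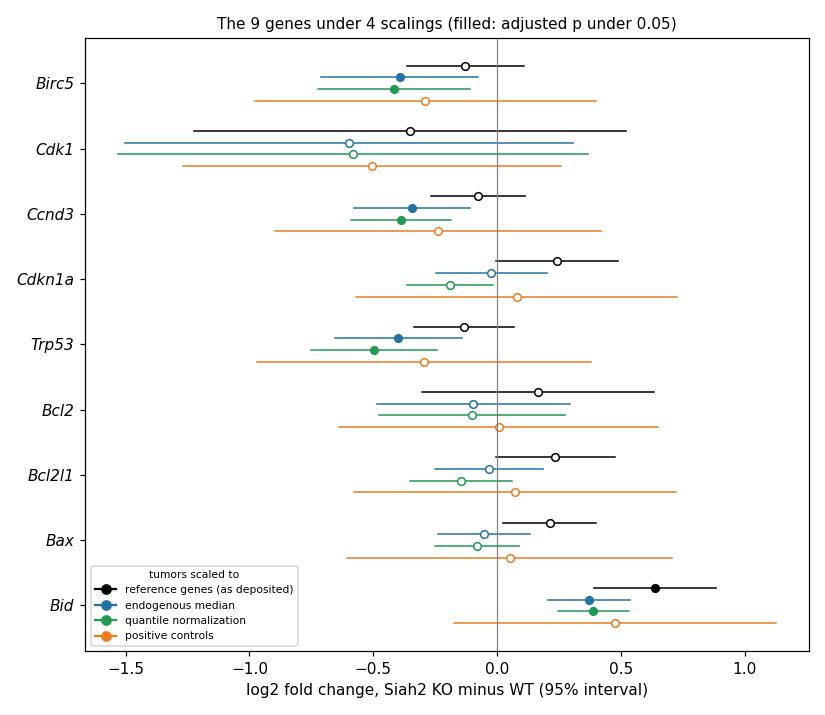
Log2 fold change, Siah2 KO minus WT, of the 9 genes with 95% intervals (horizontal axis) as deposited and under 3 other scalings of the tumors, filled where the adjusted p from limma was under 0.05. *Bid* lies right of 0 under all 4 scalings and is filled in 3, while *Birc5*, *Ccnd3* and *Trp53* lie left of 0 and are filled under the endogenous median and quantile normalization.

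**Figure D3:**
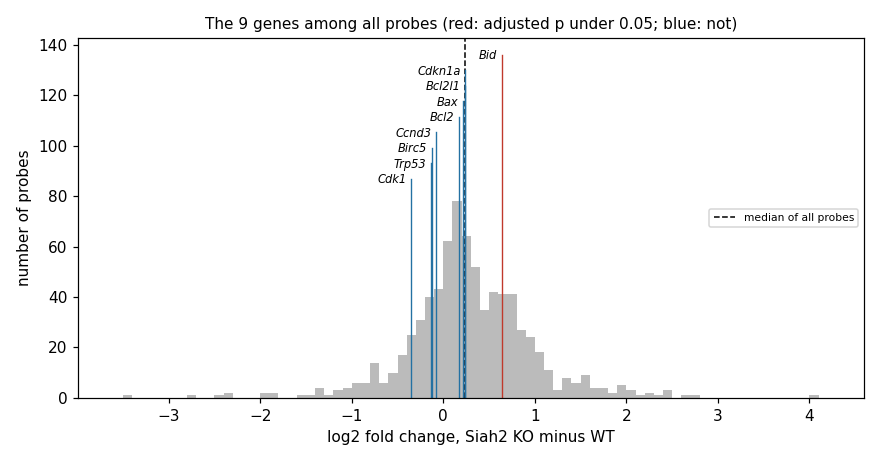
Number of the 770 probes by log2 fold change, Siah2 KO minus WT (grey bars of width 0.1), with the 9 genes as lines, red where the adjusted p was under 0.05, and the median of all probes, 0.24, as a dashed line. *Cdkn1a*, *Bcl2l1*, *Bax* and *Bcl2* lie near the median, *Birc5*, *Ccnd3*, *Trp53* and *Cdk1* lie below 0, and *Bid* lies to the right at 0.64.

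Some cell type markers differed between the genotypes on the deposited scale, on which the median probe was at 0.24. Over all probes 31.3% were higher and 9.74% lower. In a bulk sample fewer cells of a type and less RNA per cell cannot be told apart. Of 6 leukocyte genes, 5 were higher and 0 lower, with summed counts between 3925 and 4708 in WT and between 5864 and 8801 in Siah2 KO tumors. Of 6 T cell genes 3 were higher (427 to 558 in WT, 567 to 1042 in Siah2 KO tumors), and all 4 fibroblast genes were lower (16494 to 21344 against 10332 to 12326). Macrophage genes went both ways, with 1 higher and 1 lower of 6, as did endothelial genes, with 1 higher and 1 lower of 6. For neutrophils 1 of 5 genes was higher, with 3 of the 5 at a mean under 20 normalized counts, and all 5 B cell genes were under 20, with 1 higher. Of 4 genes listed for the melanocytic lineage, 2 were lower, *Cspg4* and *S100b*. The sums of the 4 genes were 454 to 623 in WT and 251 to 442 in Siah2 KO tumors. The genes of this list went both ways and do not check the melanoma label. *S100b* had a mean of 14.6 in WT and 1.72 in Siah2 KO tumors, near the floor of the values, while *Mcam*, at 135 and 121, was measured in both. *Kit*, the fourth gene of the list, had means of 21.5 and 31.1, the opposite direction, and did not pass, at 0.52 on the log2 scale (adjusted p = 0.058 from limma). The part of these shifts in the values of *Bid* and of the other 8 genes was not tested.

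A further 22 genes of the panel with known roles in growth, in the p53 pathway or in cell death were listed by name. Of these, 7 were higher, 1 was lower and 14 did not pass, so that 36.4% passed, beside 41.0% of all probes. Their median log2 fold change was 0.20. With the endogenous median as the scale, 5 were higher and 6 lower.

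In the growth list of 7 genes, *Tfrc*, the transferrin receptor that brings iron into dividing cells, had 679.7 ± 123 normalized counts in WT and 1132 ± 89.3 in Siah2 KO tumors (SD, n = 5 each). It rose by 0.75 (log2, adjusted p = 0.0012 from limma). *Myc*, a transcription factor that drives growth, rose by 0.52 (adjusted p = 0.0019), from between 755 and 910.4 in WT to between 1092 and 1344 in Siah2 KO tumors. *Bmi1*, a Polycomb protein that represses *Cdkn2a*, fell by 0.59 (adjusted p = 0.00095), from between 189.99 and 226 to between 118 and 149. No group of these 3 genes overlapped the other. *Bmi1* and *Tfrc* also passed relative to the endogenous median, at −0.85 and 0.48. *Myc* did not, at 0.25 there (adjusted p = 0.060) and at 0.12 by quantile normalization (adjusted p = 0.32). Scaled to the positive controls none of the 3 passed (adjusted p = 0.15 for *Bmi1*, 0.29 for *Tfrc* and 0.59 for *Myc* from limma). *Hras* and *Rps6* did not pass, with log2 fold changes of 0.21 and −0.13, and *Hras* had a mean of 4.17 normalized counts. *Rps6*, a protein of the small ribosomal subunit, was lower relative to the endogenous median, at −0.39 (adjusted p = 0.0065), and by quantile normalization, at −0.43 (adjusted p = 0.0023), with all 5 Siah2 KO tumors below every WT tumor on both scales.

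None of 6 genes that act with p53 or are known as its targets passed in limma, beside 41.0% of all probes. Only 1 of the 6, *Tnfrsf10b*, was at an unadjusted p under 0.05 in limma, beside 49.9% of all probes. That gene passed the methods' t-test after adjustment. *Tnfrsf10b*, a death receptor gene and p53 target, was at 0.24 (95% interval 0.03 to 0.44, adjusted p = 0.059 from limma). The others were *Pml* at 0.19, *Atm*, the DNA damage kinase that activates p53, at 0.14, *Fas* at 0.13, and the coactivators *Ep300* and *Crebbp* at −0.01 and −0.04. The direction of *Tnfrsf10b*, *Pml*, *Atm* and *Fas* turned on the scale of the endogenous median, to −0.03, −0.08, −0.12 and −0.13, and none passed. On that scale the coactivators were lower, at −0.27 (adjusted p = 0.021) and −0.30 (adjusted p = 0.014).

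Among 9 cell death genes 5 were higher and 0 lower, beside 31.3% higher and 9.74% lower over all probes. *Casp8*, the caspase that cleaves Bid below death receptors, had 643 ± 39.5 normalized counts in WT and 869.6 ± 77.2 in Siah2 KO tumors (SD, n = 5 each). It rose by 0.43 (log2, adjusted p = 0.0035 from limma). It did not pass relative to the endogenous median, at 0.17 (adjusted p = 0.12), and by quantile normalization 0.01. *Gzmb*, a granzyme, *Prf1*, the pore through which granzymes enter, and *Fasl*, a death ligand of cytotoxic lymphocytes, rose by 1.85, 1.34 and 1.33 on the log2 scale. These genes passed under all 4 scalings. *Fasl* was low, between 8.93 and 16.3 normalized counts in WT and between 20.1 and 39.7 in Siah2 KO tumors. *Xaf1*, an interferon-induced antagonist of XIAP, was at 0.96 (adjusted p = 0.00061). Relative to the endogenous median *Xaf1* was at 0.70 (adjusted p = 0.0017 from limma). Scaled to the positive controls it did not pass, at 0.80 (adjusted p = 0.12). *Fadd*, *Tnfsf10* and *Tnfrsf1a* did not pass, at −0.17, 0.42 and 0.31, and *Tnfrsf1a* was at −0.07 by quantile normalization.

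**Figure D4:**
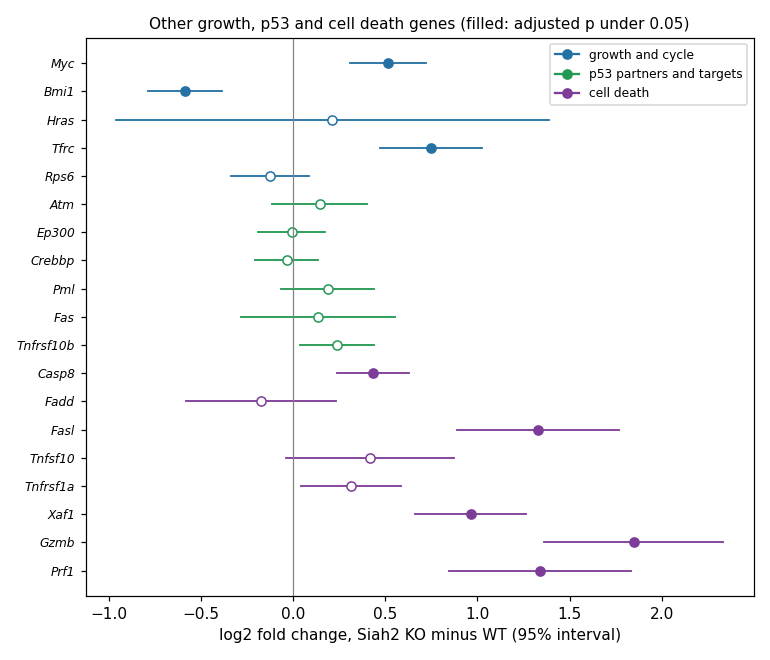
Log2 fold change, Siah2 KO minus WT, with 95% intervals (horizontal axis) of 19 of the 22 other genes of growth and cycle, the p53 pathway and cell death, filled where the adjusted p from limma was under 0.05. The filled points are *Myc*, *Tfrc*, *Casp8*, *Fasl*, *Xaf1*, *Gzmb* and *Prf1* to the right of 0 and *Bmi1* to the left, and no gene of the p53 list is filled.

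The 9 genes were also set against the panel by how they varied among tumors of the same genotype. Log2 values were taken after subtracting the mean of each group, over 10 tumors, and compared with 601 other probes whose mean reached 20 normalized counts, as a description. The tumors share 1 scaling factor per tumor, which moves all probes together. The probes named are the highest of 601 correlations for each gene, and how high unrelated probes would reach was not tested. *Bid* varied most like *Tyk2*, a Janus kinase of cytokine receptors (r = 0.97), *Tnfrsf1b*, a TNF receptor (r = 0.96), and *Tnfaip3*, an inhibitor of NF-kB signaling (r = 0.95). For *Cdkn1a* the closest were *Ikbkg* (r = 0.96), *Cebpb* (r = 0.91) and *Ptgs2* (r = 0.87), and for *Bcl2l1* they were *Col4a1* (r = 0.95), *Icos* (r = 0.93) and *Vegfc* (r = 0.86). *Birc5* was closest to *Blnk* (r = 0.87), *Isg20* (r = 0.86) and *Xcl1* (r = 0.81), and *Trp53* to *Angpt1* and *Blnk* (r = 0.85 for both). *Bcl2* was closest to *Atg7*, *Irak1* and *Tnfsf14* (r between 0.88 and 0.91), *Bax* to *Tubb5*, *Cd200r1* and *Tank* (r between 0.84 and 0.88), and *Ccnd3* to *Pml*, *Gpr183* and *Oas3* (r between 0.74 and 0.78). *Cdk1* was left out of this search because its mean was under 20. Within the group of 9, *Birc5* and *Trp53* varied together (r = 0.74), both being highest in replicate 6 of either genotype. *Bax* and *Bid* did so too (r = 0.68), whereas *Trp53* and *Bcl2l1* varied in opposite directions (r = −0.74), as did *Cdk1* and *Bax* (r = −0.77). These pairs are named because their correlations were the largest in size, and *Cdk1* was at low signal.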

How the data were processed

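The NanoString panel, which counts bound probes by their barcodes, was run on 100 ng of RNA from each of 10 tumors. The authors deposited a signal for each probe as normalized counts, made with nSolver 2.0 and scaled to 20 reference genes. The low values show that a background constant had been subtracted, with a floor of 1. Each tumor was then multiplied by its factor (0.918 to 1.60). In tumors with a factor under 1 the lowest deposited value was 1. Of the low values above the floor of each tumor, 100% lay within 0.1 of a step of its factor. Control probes carry no factor. Between 39 and 84 probes per tumor were at the floor.

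Groups and replicate numbers were taken from the titles. Log2 of the value plus 1 was compared with limma 3.58.1 in R 4.3.3 over 770 probes, with Benjamini-Hochberg adjustment, instead of the methods' t-test, which is an alternative. Exact permutation tests used all 252 divisions of the tumors and are unadjusted. The 9 genes and all lists were chosen with earlier results of these data known. The text names the 9 genes, the 22 pathway genes, the 3 probes most like each of the 9 genes and marker lists, apart from a few items that are not reported here but are in the counts. *Cspg4*, *S100b*, *Mcam* and *Kit*, the p53 motif and the *Bid* and *Cdkn1a* promoters were chosen after values were seen. A further 8 alternatives were planned beside leaving out each tumor, and 1 was added. The steps were tested on simulated data. Promoters were taken from RefSeq (GRCm38.p6), in which all 9 genes were matched by symbol. Python 3.11.15 with matplotlib 3.10.9 drew the plots.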

Additional observations from a re-analysis of the deposited data

Results flagged for a closer look

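In groups of 5 tumors, a value was singled out where its gap to the nearest of the others, over the range of the group, exceeded the 95% critical value of Dixon's test, 0.71. Of 18 groups (9 genes in 2 genotypes), 2 were singled out, where chance gives about 1 in 20. *Birc5* in Siah2 KO replicate 6 had 246.8 normalized counts, against 178 to 187 in the other 4 Siah2 KO tumors, with a ratio of 0.85. *Cdkn1a* in Siah2 KO replicate 3 had 2998 normalized counts, against 2043 to 2262 in the others, with a ratio of 0.73.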

How the results depend on the processing

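*Bid* was higher under every alternative run and passed in all except positive control scaling (adjusted p = 0.40), with a log2 fold change between 0.58 and 0.69 when single tumors were left out. The number of the 9 genes at an adjusted p under 0.05 was 1. It was 4 (1 higher, 3 lower) with median scaling and with quantile normalization, 0 with positive control scaling (limma, also 0 at an unadjusted p under 0.05), and 2, *Bid* and *Bax*, with a pseudocount of 10, with a filter at a mean of 20 and with the methods' t-test after Benjamini-Hochberg adjustment. With any single tumor left out the number was 1. Of all probes, 316 passed, between 268 and 334 with single tumors left out, and 95 with positive control scaling. The split of these calls was 241 higher and 75 lower as deposited, and 163 higher and 152 lower with median scaling. Of the 22 pathway genes, 8 passed, between 8 and 9 with single tumors left out, and 3 with positive control scaling. Directions turned with median scaling and quantile normalization for *Cdkn1a* (−0.024 and −0.19), *Bcl2* (−0.10 and −0.10), *Bcl2l1* (−0.031 and −0.15) and *Bax* (−0.052 and −0.082), none at an adjusted p under 0.05. The cause was not tested. With the replicate number as a block, among the 8 tumors that share a number, 235 probes, 1 of the 9 genes and 8 of the 22 genes passed, and 232, 1 and 8 in these tumors with no block, which was added once the data had been seen. Deviations of tumors with the same number correlated at 0.05, 0.14, 0.18 and 0.49 for numbers 2, 3, 5 and 6. For 3 of these 4 numbers the best match was the own number. The labels do not say what the numbers stand for, and the main comparison did not pair the tumors. Whether tumors with the same number share an origin was not tested. The low signal of *Cdk1*, and the 5 tumors a group, limit what could be detected.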
